A study of Mus musculus with 48 samples.

Results

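Migratory dendritic cells of the tumor-draining lymph node were compared after cisplatin and after PBS, in 3 libraries per group. These 6 libraries were chosen by their labels alone (cell type, node and treatment) out of 48 in the series. Migratory dendritic cells leave peripheral tissue through the lymph, raise the chemokine receptor CCR7 and arrive in the node in a mature state, with high MHC, costimulatory molecules and checkpoint ligands, to present antigen to T cells. Dendritic cells divide little once mature, and in a tumor-draining node they carry tumor antigen. Cisplatin is a platinum drug that crosslinks DNA bases, which in dividing cells stalls replication and activates p53.

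All 6 libraries came from wild type mice with a tumor, from nodes labelled tumor-draining (TDLN). The nodes were digested, migratory dendritic cells were sorted, and polyA RNA went into libraries of a stranded mRNA kit. Cisplatin and PBS were the only labelled difference between the groups. The labels used here give no age, strain, tumor line, dose, time after treatment or sort markers, and whether the 3 libraries of a group had separate donors is not stated. The p-values therefore measure the spread between these libraries, which may be technical. For comparison served 6 libraries of migratory cells from nodes labelled LN (columns named WT in the deposited table, read as LN by elimination) and 12 of resident dendritic cells from both nodes, each after cisplatin or PBS.

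Depth differed between the compared groups. The TDLN cisplatin libraries held 2858543 to 2952751 counts and the TDLN PBS libraries 11424067 to 15481059. Of the other dendritic cell groups, only resident cells of the LN after PBS were as deep (10733509 to 14869939 counts). A family of 12 predicted genes that share sequence with Gm10800 took 2.78 to 3.54% of counts in TDLN cisplatin and 0.783 to 0.908% in TDLN PBS. In scaling of the 12 migratory libraries by distance, the first axis (30.4% of the variance) placed TDLN PBS at 1.35 to 1.46 and the other 9 libraries between -0.80 and -0.08. The depth gap and the treatment coincide in this comparison and cannot be told apart by design, so list counts of this comparison are also given after all libraries were thinned to the smallest (2002713 counts).

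The sort label held against its markers. Ccr7 lay at 10910 to 11730 CPM (counts scaled to library size) with cisplatin and 11960 to 12320 with PBS, when scaled over the 24 dendritic cell libraries, and at 648.5 to 1177 in resident cells. The 30 genes of the migratory maturation list summed to 59550 to 61470 and 73440 to 74070 CPM, against 3681 to 6378 in resident cells. B cell markers, a trace of another cell type, summed to 720.0 to 742.6 CPM with cisplatin and 486.8 to 516.5 with PBS. The T cell list summed to 553.2 to 580.8 and 503.4 to 518.1 CPM. In bulk libraries fewer cells of a type and less RNA per cell cannot be told apart.

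Of 12519 genes tested, 1768 rose with cisplatin (14.1%) and 1648 fell (13.2%), by the quasi-likelihood test of edgeR at a Benjamini-Hochberg adjusted p under 0.05. Beyond a 2-fold change the split was uneven, with 676 genes up (5.4%) and 82 down (0.655%), 6.05% together. CPM of the groups did not overlap for 43.7% of genes tested. After thinning, 926 of 11341 genes rose (8.17%) and 801 fell (7.06%), of which 295 rose (2.6%) and 64 fell (0.564%) at least 2-fold. Of the genes called at full depth, 874 that rose and 769 that fell were called in the same direction after thinning. Without a filter on low counts the scaling moved the median log2 fold change of all genes by -0.28, to -0.29, and list medians under that setting are to be read against it.

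Expression level divided the large rises. Of the 676 genes that rose at least 2-fold, 463 averaged under 4 CPM, and of those 280 also rose in resident cells of the LN, where PBS was the deep group as well (11.4% of all genes rose and 13.7% fell there, 25.1% together), and 81 were still called after thinning. Of the other 213, 172 averaged 4 to 20 CPM and 41 averaged 20 CPM or more. All 41 were called after thinning, and 129 of the 172. Among all genes under 4 CPM the median log2 fold change was 0.52 in the TDLN migratory comparison, -0.10 in LN migratory, 0.10 in TDLN resident and 0.37 in LN resident cells. At 4 CPM or more on average over the 12 libraries, medians of the TDLN migratory comparison lay between -0.06 and -0.01. The genes described below were named from a mean of 4 CPM upward, lists aside.

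**Figure D1:**
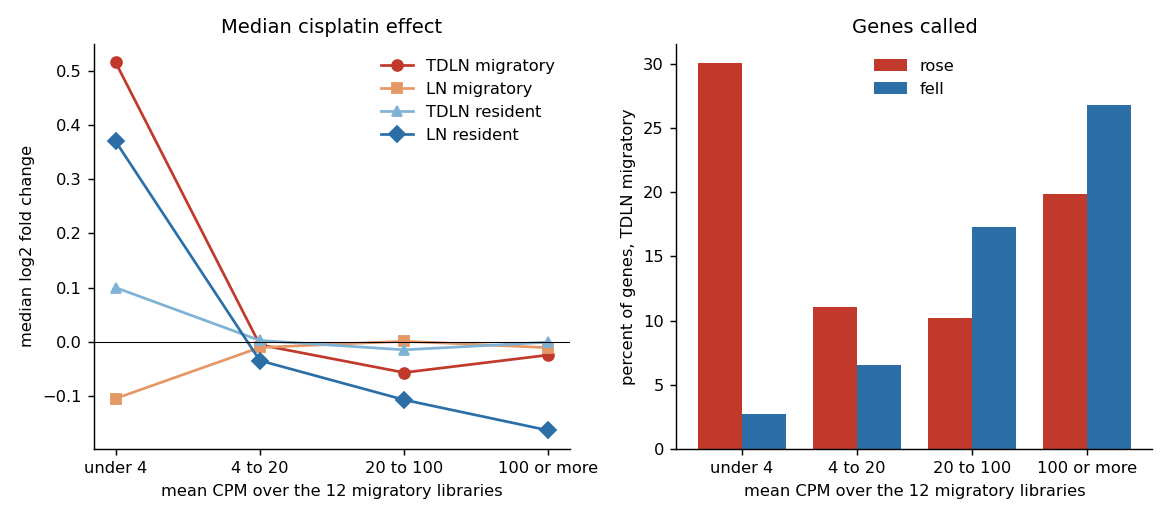
Left, median log2 fold change of cisplatin against PBS (y axis) by mean CPM of the gene over the 12 migratory libraries (x axis), with 1 line for each of the 4 cisplatin comparisons. Right, percent of genes that rose (red) or fell (blue) in TDLN migratory cells. Under 4 CPM, 418 of 1390 genes rose and 38 fell, and the 2 comparisons with a deep PBS group have the highest medians (0.52 and 0.37). From 20 CPM upward more genes fell than rose.

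Base composition also went with the effect. Over 6611 genes of at least 20 CPM, the median log2 fold change ran from -0.22 in the fifth with the lowest GC content to 0.08 in that with the highest, with a Spearman correlation across genes of 0.409. The same correlation was 0.038 in LN migratory, -0.044 in TDLN resident and 0.032 in LN resident cells. An offset for GC content and transcript length gave 1621 genes up and 1614 down, 25.9% together, with 1420 and 1212 of the original calls.

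The groups can also be set against the other migratory libraries. Of the 213 genes of at least 4 CPM that rose 2-fold or more, 125 had all 3 TDLN PBS libraries below the other 9 migratory libraries (58.7%), and 55 had all 3 TDLN cisplatin libraries above the other 9 (25.8%). Over all genes of at least 4 CPM these shares were 6.51% and 3.04%. For 51 genes that fell as far, 22 had PBS above the other 9 (43.1%) and 8 had cisplatin below them (15.7%), against 1204 and 265 of all 10993 genes of at least 4 CPM. Both sets were chosen by the gap between the same TDLN groups. That choice favours such patterns, so the excess over all genes does not show which group stands apart.

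**Figure D2:**
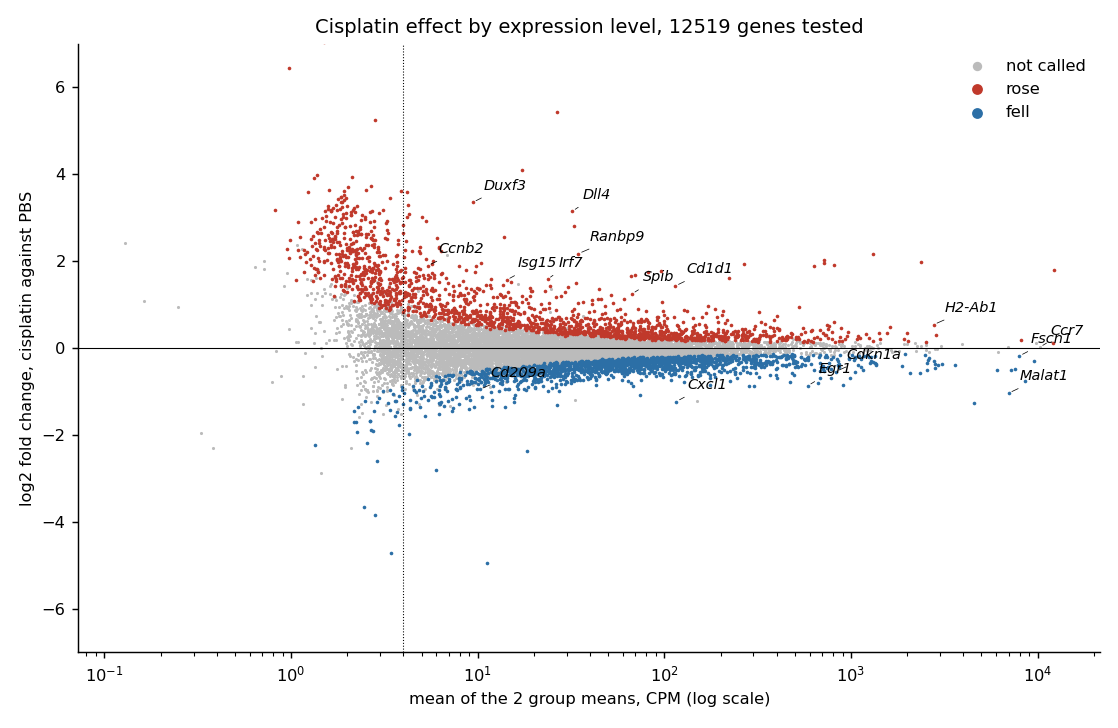
Each point is 1 of 12519 genes, with the mean of both group means in CPM on a log scale (x axis) and the log2 fold change of cisplatin against PBS in TDLN migratory cells (y axis). Red genes rose and blue genes fell (adjusted p under 0.05), the dotted line marks 4 CPM, and 7 genes lie beyond the y axis. Dll4 (3.15) stands out among the labelled genes above 20 CPM, where the unlabelled Ighg2c rose further (5.44), while the cloud of large rises lies left of the line.

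Dll4, a ligand of Notch receptors that dendritic cells use to steer T cell differentiation, had one of the largest rises. Its CPM were 63.1, 51.1 and 58.6 with cisplatin and 6.56, 6.21 and 6.69 with PBS. The cisplatin libraries were all several times above every PBS library, and the log2 fold change was 3.15 ± 0.132 (SE, edgeR adjusted p = 4.71e-14). Thinning left it at 3.35, on 187, 149 and 170 counts against 74, 93 and 103 at full depth. In the LN migratory cells Dll4 did not follow (log2 fold change -0.02, edgeR adjusted p = 0.969), and the difference between nodes was 3.17 (edgeR adjusted p = 1.49e-09). Over all 8 groups, PBS in the tumor node was the lowest (7.39 to 7.98 CPM) and the LN migratory groups came next (14.04 to 20.11), followed by TDLN cisplatin (55.3 to 69.1). Resident cells were at 59.2 to 164.7, so the level after cisplatin lay above both LN migratory groups and within or below the resident range.

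Other Notch genes moved in both directions. Of 11 tested, 3 rose and 2 fell, and after thinning 2 and 1. The E3 ligase gene Dtx1, itself a Notch target, was at 20.2, 20.2 and 17.9 CPM with cisplatin against 9.83, 11.2 and 8.31 (log2 fold change 1.00, edgeR adjusted p = 7.93e-05). Its cisplatin libraries, like those of Dll4, were above the other 9 migratory libraries. The ligand gene Jag2 also rose, at 14.5, 16.5 and 8.62 CPM against 8.24, 8.08 and 7.73, a call lost after thinning (edgeR adjusted p = 0.218), without the first (0.64) and without the second cisplatin library (0.53). Notch2, the receptor on which splenic dendritic subsets depend, fell by 0.33 on the log2 scale and lost its call after thinning (edgeR adjusted p = 0.13). Rbpj, the DNA-binding partner of the Notch intracellular domain, fell by 0.57 and by 0.63 after thinning.

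**Figure D3:**
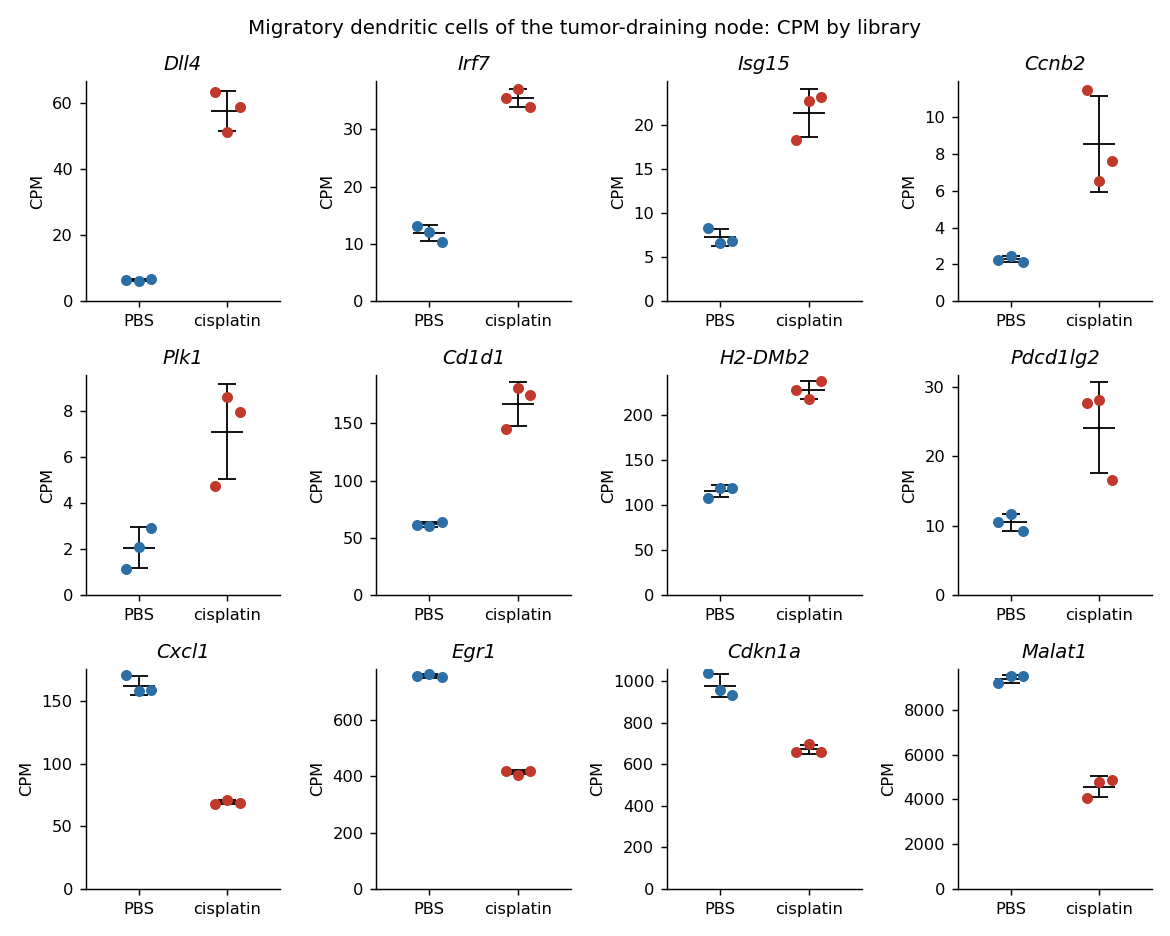
CPM of 12 genes (y axes, each from 0) in the 3 PBS (blue) and 3 cisplatin (red) libraries of TDLN migratory cells, with mean and SD in black. The groups do not overlap for any of the 12 genes. Dll4, Irf7, Isg15, Ccnb2, Plk1, Cd1d1, H2-DMb2 and Pdcd1lg2 are higher with cisplatin, and Cxcl1, Egr1, Cdkn1a and Malat1 are lower.

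Type I interferon genes rose in part. Interferons signal through a complex that holds IRF9 and binds a GAAANNGAAA element in target promoters, and IRF7 amplifies the response. Of 30 list members tested, 12 rose and 3 fell, with a median log2 fold change of 0.38 against -0.01 over all genes tested. After thinning 10 of 27 rose and 1 fell, and without a filter on low counts 6 of 32 rose and 7 fell, with a median of 0.14. Irf7 was at 35.4, 37.1 and 33.8 CPM with cisplatin and 13.20, 12.01 and 10.39 with PBS, with every cisplatin library above every PBS library. Its log2 fold change was 1.58 ± 0.127 (edgeR adjusted p = 4.28e-09), and 0.51 in the LN. Isg15, a ubiquitin-like modifier, was at 18.2, 22.7 and 23.1 against 8.33, 6.54 and 6.82 CPM, again without overlap (log2 fold change 1.57 ± 0.173, edgeR adjusted p = 6.16e-07). The LN value for Isg15 was 0.13 and the node difference 1.44 (edgeR adjusted p = 0.00126).

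The oligoadenylate synthetase family, which senses double-stranded RNA, accounted for 5 of the 12, with Oas1a (0.63), Oas2, Oas3 (0.70), Oasl1 (1.39) and Oasl2 (1.31). Irf9, Ifi47, Slfn5 and Zbp1 were among the others. Against these, the antiviral GTPase gene Mx1 fell by 0.33, and Herc6 and the RNA sensor gene Ifih1 by 0.37 and 0.32, the last 2 not called after thinning. Ifit1, which the same pathway induces, lay at 12.2, 11.3 and 9.66 CPM with cisplatin and 10.3, 11.5 and 11.8 with PBS, overlapping. For 6 of the 12 the level was higher in all other migratory libraries than in TDLN PBS (Isg15, Oas3, Oasl1, Oasl2, Irf7 and Zbp1). For 2 of the 12, Isg15 and Slfn5, it was higher with cisplatin than in the other 9 libraries. Over all 1768 genes that rose these shares were 51.1% and 14.9%, and over all genes tested 8.65% and 2.8%. In TDLN resident cells 7 of 32 rose with cisplatin and 0 fell (105 genes or 0.722% rose and 0.742% fell in that comparison, by edgeR, with 22 up and 1 down at an unadjusted p under 0.05). Of 20 interferon gamma genes, 6 rose (the immunoproteasome and transporter genes Psmb8, Psmb9, Psmb10 and Tap1, and Gbp7 and Igtp) and Gbp4 fell. After thinning 4 of 19 rose and 1 fell. Several of these smaller calls were lost on leaving out 1 library. Oas2 was no longer called without any single one of 5 libraries, the third of cisplatin being the exception (0.85 to 1.21). Slfn5 lost its call without the second cisplatin library (0.27), Ifi47 without the second (0.41) or the third (0.37), and Gbp7 without the second (0.75). Psmb10 lost it without the first cisplatin (0.16), second PBS (0.23) or the third PBS library (0.19), and Ifih1 without the first cisplatin (-0.22) or the third PBS library (-0.27). Ifi47, Slfn5, Gbp7 and Igtp were not called after thinning.

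To show what the risen genes carry upstream, promoters from 250 bases before to 50 after the start site were taken from RefSeq (build GRCm38.p6). Of the 12 risen genes 9 had a promoter there, and 4 of those 9 held GAAANNGAAA on either strand (Isg15, Oas1a, Oas3 and Slfn5). So did 7 of 14 promoters of the other list members, Ifit1 and Ifih1 among them, and 3.44% of 32851 promoters in all. The 100 bases around the matches of 3 risen genes follow, from chr4:156200836-156200935, chr5:120907488-120907587 and chr5:120777680-120777779, all on the minus strand, with the element in capitals.
Isg15: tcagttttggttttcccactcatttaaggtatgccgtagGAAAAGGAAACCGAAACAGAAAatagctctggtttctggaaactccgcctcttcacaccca
Oas1a: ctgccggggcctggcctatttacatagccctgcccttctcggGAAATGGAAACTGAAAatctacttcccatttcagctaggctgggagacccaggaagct
Oas3: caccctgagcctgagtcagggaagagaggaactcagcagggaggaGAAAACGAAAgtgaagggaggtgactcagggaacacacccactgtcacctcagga
Isg15 held 3 overlapping copies, Oas1a 2 and Oas3 1. A match is a run of letters and not evidence of binding in these cells.

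Cell cycle genes rose from low levels. Of 30 genes of the proliferation list, 21 rose and 1 fell, with a median log2 fold change of 0.58. After thinning 16 of 29 rose and 1 fell. Mitotic genes led. Ccnb2, which encodes cyclin B2, was at 11.5, 6.52 and 7.59 CPM against 2.21, 2.47 and 2.14 (log2 fold change 1.90 ± 0.278, edgeR adjusted p = 2.51e-05, 1.11 after thinning). Plk1, a mitotic kinase, was at 4.72, 8.58 and 7.93 against 1.15, 2.07 and 2.92 CPM (log2 fold change 1.74 ± 0.349, edgeR adjusted p = 0.000666). No cisplatin library overlapped PBS in either gene, and the cisplatin libraries spread more widely than the PBS libraries. The kinetochore gene Cenpf (1.90), the cyclin gene Ccnb1 (1.70), Cdk1 (0.91) and the topoisomerase gene Top2a (1.13) rose too, as did the replication helicase genes Mcm2, Mcm3, Mcm5, Mcm6 and Mcm7 (Mcm5 by 0.40, from 45.9, 41.2 and 48.5 to 58.0, 55.3 and 65.9 CPM). Mki67, the most used proliferation marker, went the other way, from 78.7, 76.8 and 72.6 to 54.7, 48.7 and 53.8 CPM (log2 fold change -0.54, edgeR adjusted p = 6.16e-05). Mcm6 was not called after thinning (0.10, edgeR adjusted p = 0.54), with DESeq2, with a replicate block or without any 1 of the 6 libraries (0.18 to 0.25). Nor was Mcm7 without the first (0.24) or the third cisplatin (0.34) or the third PBS library (0.31), nor Mcm5 without the third cisplatin library (0.32).

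The list as a whole summed to 884.3 to 941.3 CPM with cisplatin and 738.1 to 762.5 with PBS. Restricting the fit to genes averaging at least 10 CPM left 8 called up and 1 down. Of the 21 that rose, 8 had cisplatin above all other migratory libraries (Top2a, Cdk1, Ccnb2, Bub1, Bub1b, Kif11, Mcm6 and Rrm2) and 5 had PBS below them. Among all 1768 genes that rose these shares were 14.9% and 51.1%. Bub1 lost its call without the first cisplatin (1.07) or first PBS library (0.94), and Bub1b without the third cisplatin (0.46), first PBS (0.46) or second PBS library (0.42). In the LN 2 of 30 rose and 0 fell (6.15% of all genes rose and 4.82% fell there, edgeR, with 4 up and 1 down at an unadjusted p under 0.05). In LN resident cells, the other comparison with deep PBS libraries, the median was -0.43, 0 of 30 rose and 13 fell (edgeR, with 0 up and 17 down at an unadjusted p under 0.05).

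Cell cycle promoters often carry a TTTGAA element (the CHR) with CCAAT boxes nearby, read by the DREAM and MuvB complexes and by NF-Y. Of the 21 risen genes 18 had a RefSeq promoter, of which 8 held TTTGAA and 15 held CCAAT on either strand. For the other members the counts were 2 and 5 of 7, and over all 32851 promoters 17.9% and 37.4%. The 200 bases around the start sites of Ccnb2 (chr9:70421534-70421733, minus strand), Plk1 (chr7:122159285-122159484, plus strand) and Cenpf (chr1:189688049-189688248, minus strand) show how both elements sit together, each match in capitals.
Ccnb2: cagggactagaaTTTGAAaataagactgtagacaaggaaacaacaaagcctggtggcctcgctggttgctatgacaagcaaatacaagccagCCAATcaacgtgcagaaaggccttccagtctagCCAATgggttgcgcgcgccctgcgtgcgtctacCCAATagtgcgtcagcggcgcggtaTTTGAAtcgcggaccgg
Plk1: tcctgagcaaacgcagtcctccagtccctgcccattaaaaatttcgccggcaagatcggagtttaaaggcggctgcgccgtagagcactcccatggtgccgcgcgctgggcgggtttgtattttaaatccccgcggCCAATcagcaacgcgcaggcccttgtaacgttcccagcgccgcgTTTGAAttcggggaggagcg
Cenpf: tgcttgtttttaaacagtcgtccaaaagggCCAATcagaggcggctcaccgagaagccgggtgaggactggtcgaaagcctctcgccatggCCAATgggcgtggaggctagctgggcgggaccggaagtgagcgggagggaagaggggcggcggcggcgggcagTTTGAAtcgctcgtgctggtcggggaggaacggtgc
In all 3 the last match is a TTTGAA downstream of the CCAAT boxes.

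Most MHC class II transcripts rose in migratory cells of both nodes. Of 13 genes, 9 rose and 0 fell (edgeR, median log2 fold change 0.54, 10 up and 1 down at an unadjusted p under 0.05, 9 and 0 with DESeq2, which called 13.1% of all genes up and 10.6% down), and after thinning again 9 and 0. Ciita, the master regulator of the class, was at 189, 171 and 167 CPM with cisplatin against 110, 116 and 101. H2-DMb2, a chain of the peptide-exchange factor, was at 228, 218 and 238 against 108, 119 and 119, with no overlap (log2 fold change 0.98 ± 0.0679, edgeR adjusted p = 3.73e-10). H2-Ab1, the classical beta chain, was at 3427, 3200 and 3231 against 2341, 2215 and 2223 CPM (log2 fold change 0.54, edgeR adjusted p = 5.96e-08). The invariant chain gene Cd74, at 10600, 10110 and 9824 against 9755, 9107 and 9151 CPM, missed the threshold (log2 fold change 0.12, edgeR adjusted p = 0.0708). In the LN 11 of 13 rose and 0 fell (edgeR, 11 up and 1 down at an unadjusted p under 0.05), with values of 0.78 for Ciita and 0.83 for H2-Ab1. In resident cells of the TDLN 0 of 13 were called (edgeR, 0 up and 0 down at an unadjusted p under 0.05). In resident cells of the LN 9 fell and 0 rose (edgeR, 10 down and 0 up at an unadjusted p under 0.05). For 8 of the 9 risen genes the TDLN PBS libraries were below the other 9 migratory libraries. The share over all 1768 genes that rose was 51.1%.

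Class I genes moved less. Of 20 genes of class I and peptide loading, 7 rose and 2 fell, with a median log2 fold change of 0.10 that turned to -0.17 without a filter on low counts. After thinning 9 rose and 2 fell. The peptide transporter gene Tap1 rose from 544, 530 and 516 to 738, 693 and 702 CPM (0.42), and Tap2, Tapbp, Tapbpl, H2-D1, Psmb8 and Psmb9 made up the others. H2-D1 was not called without any 1 of the 6 libraries (0.09 to 0.13), and the GC offset ended the calls of H2-D1 and Tapbp (both 0.00). B2m, the shared light chain, fell from 3210, 3157 and 3123 to 2346, 2508 and 2518 CPM (log2 fold change -0.36), a call that the GC offset ended (-0.11, edgeR adjusted p = 0.121). In the LN 0 of 20 rose and 9 fell (edgeR, 2 up and 10 down at an unadjusted p under 0.05). The node difference was called higher for 13 of the 20 and lower for 2 (over all genes 8.43% were higher and 7.17% lower).

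Cd1d1, which presents lipids to NKT cells, rose from 61.2, 60.3 and 64.1 to 145, 181 and 175 CPM (log2 fold change 1.43 ± 0.0792, edgeR adjusted p = 5.83e-12), with no overlap and 0.12 in the LN.

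Checkpoint and costimulatory ligands rose more often than they fell. Of 19 tested, 7 rose and 1 fell, and the same numbers after thinning. The median log2 fold change of 0.27 became -0.01 without a filter on low counts, with 4 up and 7 down. Pdcd1lg2, which encodes PD-L2, was at 27.7, 28.1 and 16.6 CPM with cisplatin and 10.5, 11.7 and 9.29 with PBS. One cisplatin library was lower than the others, yet above all of PBS (log2 fold change 1.20 ± 0.166, edgeR adjusted p = 1.22e-05). Cd274, which encodes PD-L1, rose less, from 335, 328 and 352 to 454, 467 and 474 CPM (0.46), while in the LN it fell by 0.29, a node difference of 0.75 (edgeR adjusted p = 3.28e-07). The CD28 ligand gene Cd86 rose from 113.5, 122.8 and 127.4 to 204, 218 and 219 CPM (0.81), whereas Cd80 lay at 40.8, 40.9 and 41.7 against 38.2, 41.0 and 41.6, overlapping. Cd200, an inhibitory ligand, went from 84.5, 88.4 and 95.7 to 165, 171 and 156 CPM (0.87). Lgals9, Nectin2 and Tnfsf4 (OX40 ligand) also rose, and the nectin-like gene Pvr fell by 0.33. Nectin2 was not called without the first (0.62) or the third cisplatin library (0.60), nor Tnfsf4 without the first (0.61) or the third cisplatin (0.35) or the first (0.57) or second PBS library (0.58). For Cd86 and Cd200 the cisplatin libraries were above the other 9 migratory libraries, and for Pdcd1lg2 and Nectin2 the PBS libraries were below them.

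The migratory maturation program split, with 6 of 30 genes up, 8 down and a median log2 fold change of 0.01, and with 6 up and 7 down after thinning. Besides the ligands above, Tnfrsf4 and the protease inhibitor gene Spint2 rose. Cd83, a surface marker of mature dendritic cells, fell from 8428, 8344 and 8450 to 5950, 5939 and 5863 CPM (log2 fold change -0.51 ± 0.0403, edgeR adjusted p = 3.86e-09). Its cisplatin libraries were tightly grouped and below all PBS libraries, and the LN value was 0.00 (edgeR adjusted p = 0.976). Marcks, an actin-binding substrate of protein kinase C, fell by 0.68, the chemokine gene Ccl22 by 0.31 and the actin bundler gene Fscn1 by 0.18. Ccr7 lay at 10710, 10090 and 10160 CPM with cisplatin and 10420, 10050 and 10080 with PBS, overlapping (0.02). With the GC offset it was called lower (-0.08, edgeR adjusted p = 0.0353). Without a filter on low counts it was -0.26 (edgeR adjusted p = 2.75e-07), where the median of all genes moved by -0.28. In the scaling over all dendritic cell libraries, given above for the sort markers, its cisplatin libraries lay below all PBS libraries. The direction for Ccr7 thus depended on the setting.

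Subset markers moved in both directions, with median log2 fold changes of 0.46 for cDC1, 0.20 for cDC2 and -0.40 for Langerhans cell genes. Of 15 cDC1 genes 4 rose, among them Irf8, from 637, 625 and 617 to 914, 897 and 871 CPM (0.51), and Tlr11 fell, while Xcr1 (8.10, 7.89 and 9.66 against 7.26, 5.07 and 6.17 CPM) and Batf3 were not called. After thinning 3 of 13 rose and 1 fell. Clec9a, among the 4 that rose, was not called without the first (1.40) or the third cisplatin (1.01) or the second PBS library (1.12). Of 11 cDC2 genes 3 rose, and the lectin gene Cd209a fell, with 1 up and 1 down after thinning. Of 5 Langerhans cell markers 3 fell and the connexin gene Gja1 rose (2 and 1 after thinning), with Cd207, the Birbeck granule lectin, down from 51.3, 51.0 and 50.2 to 32.0, 36.0 and 35.5 CPM (-0.56), beside Epcam (-0.40) and Cldn1. Gja1 was not called without the first cisplatin library (0.92). Epcam was not called after thinning, nor without the first (-0.40) or second cisplatin (-0.41) or the third PBS library (-0.33). The Langerhans list summed to 125.9 to 127.2 CPM with cisplatin and 165.4 to 180.9 with PBS.

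Most immediate early genes fell. They encode short-lived factors such as FOS, JUN and EGR1 that follow acute signals, cell handling included. Of 24 genes 16 fell and 0 rose (edgeR, 18 down and 0 up at an unadjusted p under 0.05, 15 and 0 with DESeq2), with a median of -0.29, and after thinning 14 and 0. Egr1 was at 420, 406 and 419 CPM with cisplatin against 756, 765 and 752, with little spread in either group (log2 fold change -0.87 ± 0.0522, edgeR adjusted p = 2.53e-11). Jun fell by 0.61, Ier2 by 0.55, Nr4a3 by 0.45, Fos by 0.40 and Junb by 0.35. For 9 of the 16 the cisplatin libraries were below the other 9 migratory libraries, Fos, Junb and Egr1 among them, and for 5 the PBS libraries were above. Over all 1648 genes that fell these shares were 12.3% and 54.7%, and over all genes tested 2.2% and 9.72%. In the LN 12 of 24 rose and 6 fell, and the node difference was lower in 18 and higher in 0 (edgeR, 20 and 0 at an unadjusted p under 0.05). In LN resident cells 18 fell and 0 rose, and in TDLN resident cells 6 rose and 0 fell (edgeR, 1 down at an unadjusted p under 0.05).

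Of 20 genes of the NF-kB pathway 7 fell and 2 rose, before and after thinning, and the median log2 fold change was -0.04. Tnfaip3, which encodes the deubiquitinase A20, fell from 3240, 3323 and 3265 to 2417, 2347 and 2374 CPM (log2 fold change -0.46, edgeR adjusted p = 2.97e-08), and the inhibitor gene Nfkbia from 3613, 3486 and 3312 to 2816, 2654 and 2623 (-0.36). Birc3, Icam1, Nfkbiz, Rel and Tnfaip2 also fell. The subunit gene Nfkb1 (0.32) and Bcl3 (0.25) rose, while Relb, at 2232, 1994 and 1972 against 2005, 1924 and 1867 CPM, overlapped. Bcl3 was not called without the first cisplatin (0.16) or second PBS library (0.21), nor Birc3 without the second cisplatin library (-0.16).

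**Figure D4:**
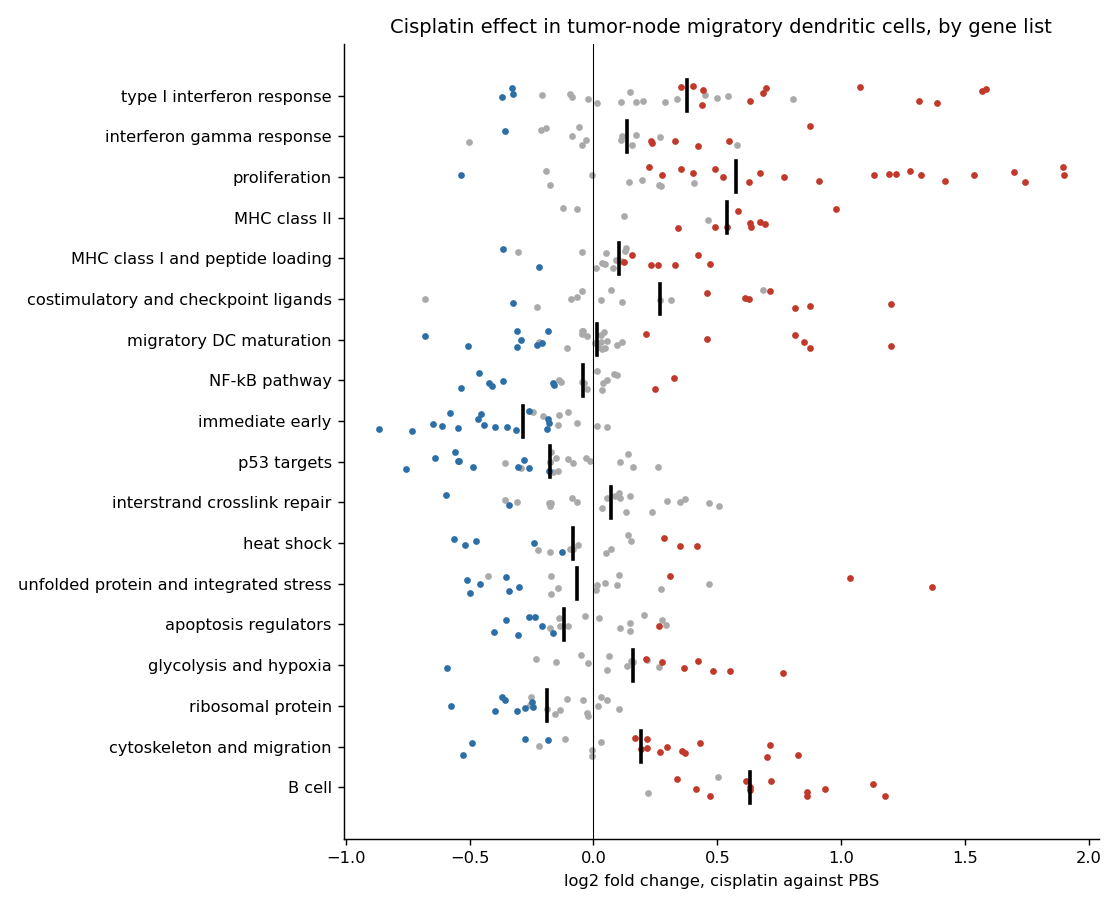
Log2 fold change of cisplatin against PBS in TDLN migratory cells (x axis) for the tested genes of 18 lists (rows), with the median as a black bar. Red genes rose, blue genes fell and grey genes were not called. Proliferation (median 0.58), MHC class II (0.54), B cell (0.63) and type I interferon (0.38) lie to the right, and immediate early genes (-0.29), ribosomal proteins (-0.19) and p53 targets (-0.18) to the left.

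Targets of p53, which respond to platinum adducts in many cell types, did not rise. Of 26 tested, 10 fell and 0 rose (edgeR, 13 down and 0 up at an unadjusted p under 0.05, 10 and 0 with DESeq2), again 10 and 0 after thinning. Cdkn1a, the p21 cell cycle inhibitor, went from 1042, 959.4 and 934.9 to 662.0, 696.8 and 658.5 CPM (log2 fold change -0.54 ± 0.0639, edgeR adjusted p = 1.52e-06). Ccng1 fell from 251, 256 and 261 to 175, 175 and 174 CPM (-0.55), and Mdm2, the p53 ubiquitin ligase, from 148, 146 and 143 to 121, 121 and 118 (-0.28). The groups were clearly separate in all 3 genes. The pro-apoptotic gene Bax lay at 170, 142 and 156 against 183, 176 and 169 CPM, overlapping (-0.18). In the LN 4 rose and 2 fell. The node difference was lower in 10 and higher in 0 (edgeR, 12 and 0 at an unadjusted p under 0.05), with -0.50 for Cdkn1a and -0.66 for Ccng1. In TDLN resident cells Cdkn1a rose by 0.49 (edgeR adjusted p = 0.0423). Several p53 targets also answer other signals, and Btg2 stands in the immediate early list as well.

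Genes that repair or handle platinum changed little. Of 22 interstrand crosslink repair genes 0 rose and 2 fell (edgeR, 3 up and 2 down at an unadjusted p under 0.05, 0 and 1 with DESeq2), the Fanconi genes Fancl, at 19.6, 20.6 and 24.1 against 35.2, 33.2 and 29.0 CPM (-0.60), and Fancd2 (-0.34). After thinning 0 of 19 rose and 1 fell. Of 17 excision repair genes 0 rose and Cetn2 fell (edgeR, 1 up and 3 down at an unadjusted p under 0.05, 0 and 1 with DESeq2). Of 11 genes of platinum transport and binding 0 rose (edgeR, 1 at an unadjusted p under 0.05, 0 with DESeq2) and the metallothionein gene Mt1 fell, from 106, 93.8 and 87.5 to 69.5, 72.1 and 70.0 CPM, a call lost after thinning (edgeR adjusted p = 0.197). The copper and platinum importer gene Slc31a1 was at 15.5, 19.2 and 20.4 against 14.9, 17.35 and 17.99 CPM, overlapping. The NRF2 list had 1 gene up, the heme oxygenase gene Hmox1, and 2 down. Fancd2 was not called without the first (-0.35) or second cisplatin (-0.28) or the second (-0.36) or the third PBS library (-0.35). Hmox1 lost its call without the first cisplatin (0.42), first PBS (0.67) or second PBS library (0.55). After thinning none of the excision repair or platinum handling genes was called, and 0 NRF2 genes rose and 1 fell.

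In the stress and survival lists more genes fell than rose, while over all genes tested 14.1% rose and 13.2% fell. Of 20 genes of the unfolded protein and integrated stress responses 6 fell, with the chaperone gene Hspa5 from 812, 886 and 859 to 663, 683 and 658 CPM (-0.35) and Atf4 (-0.46), while the serine synthesis genes Phgdh (1.04) and Psat1 (1.37, not called after thinning) rose with Pdia6. After thinning 6 fell and 2 rose. Of 17 heat shock genes 5 fell, Hspa1a by 0.52, and 3 rose (4 and 1 after thinning). In the LN 10 of the 17 rose and 0 fell (edgeR, 12 up and 0 down at an unadjusted p under 0.05). Of 20 apoptosis regulators 7 fell, the survival gene Mcl1 by 0.40, and the BH3-only gene Bcl2l11 rose (0.27). After thinning 6 fell and Bcl2l11 was no longer called, nor was it without any 1 of 5 libraries, all but the first of cisplatin (0.21 to 0.28).

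Secreted signals divided by gene. Of 18 cytokine genes 5 rose and 5 fell (4 and 3 after thinning). Osm, an IL-6 family cytokine, rose from 31.1, 25.6 and 29.8 to 60.4, 70.0 and 58.6 CPM (log2 fold change 1.13 ± 0.0995, edgeR adjusted p = 1.96e-08), with groups well apart and a node difference of 1.31. Both subunits of IL-27, a cytokine that shapes T cell responses, rose. Il27 was at 8.77, 6.18 and 4.14 CPM against 2.83, 2.40 and 2.34 (1.34) and Ebi3 at 89.8, 85.1 and 78.3 against 70.1, 66.1 and 66.8 (0.32, not called after thinning). In the LN Il27 fell by 1.28. Tnf fell from 68.0, 68.3 and 69.7 to 52.3, 49.4 and 44.5 CPM (-0.49) and Il1b by 0.28, along with Il6, Il15 and Csf1. Il6 was not called without the first (-0.40) or second cisplatin (-0.64) or the third PBS library (-0.42), nor Il15 without the first cisplatin (-0.18), second PBS (-0.25) or the third PBS library (-0.24), nor either after thinning. Il12b, at 336, 387 and 384 against 365, 371 and 367 CPM, overlapped.

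Of 19 chemokine and receptor genes 2 rose and 3 fell, and the same numbers of 17 after thinning. At full depth these counts were near the shares over all genes tested (14.1% rose and 13.2% fell). The neutrophil chemokine genes Cxcl1, from 171, 158 and 159 to 67.8, 71.1 and 68.6 CPM (log2 fold change -1.23 ± 0.0777, edgeR adjusted p = 6.39e-11), and Cxcl2, from 35.0, 32.2 and 33.0 to 19.2, 17.9 and 19.7 (-0.82), fell with no overlap. Their cisplatin libraries were below the other 9 migratory libraries. Cxcr5, the receptor for follicle homing and also a B cell marker, rose from 29.1, 26.3 and 27.5 to 62.4, 59.7 and 59.0 CPM (1.13). Il33, the cytokine in the study's title, was at 1.35, 1.72 and 3.10 CPM with cisplatin and 1.24, 1.94 and 1.62 with PBS. Its receptor gene Il1rl1 was at 1.69, 1.03 and 1.73 against 0.620, 0.667 and 0.195 CPM. Both were too low to enter the test of migratory cells. Il33 overlapped between groups and Il1rl1 did not.

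Metabolic genes moved modestly. Of 19 glycolysis and hypoxia genes (median 0.16, or -0.09 without a filter on low counts) 7 rose, all glycolytic (Aldoa, Eno1, Gapdh, Gpi1, Ldha, Pfkp and Pkm), and the mitophagy gene Bnip3 fell (7 and 0 after thinning). Ldha was at 170, 190 and 186 CPM against 125, 121 and 126 (0.55). For all 7 the PBS libraries were below the other 9 migratory libraries, as for 51.1% of all 1768 genes that rose. Bnip3 was not called without the first (-0.55) or second cisplatin (-0.53) or the third PBS library (-0.50), nor Pkm without the first cisplatin (0.17), second PBS (0.20) or the third PBS library (0.18). Of 21 cytosolic ribosomal protein genes 8 fell and 0 rose (edgeR, 11 down and 0 up at an unadjusted p under 0.05, 5 and 0 with DESeq2), and after thinning 3 fell. Cholesterol synthesis genes had 3 up and 4 down of 24 (1 and 2 after thinning), near the shares over all genes tested (14.1% and 13.2%). In the LN 14 fell and 0 rose (edgeR, 16 and 0 at an unadjusted p under 0.05), so that the node difference was higher in 14. Insig1, which retains the SREBP complex, fell by 0.27 in the TDLN, a call lost after thinning (edgeR adjusted p = 0.128), and by 0.95 in the LN.

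Of 21 genes of the cytoskeleton and migration 12 rose and 4 fell (12 and 3 after thinning), with a median log2 fold change of 0.19, or -0.08 without a filter on low counts. Actb was at 8950, 8617 and 8597 CPM against 8022, 7359 and 7526 (0.19), while in the LN it fell by 0.78. Ezr, a membrane linker, rose by 0.37. Swap70, a Rac regulator, rose by 0.17, its cisplatin libraries above the other 9. The thymosin genes Tmsb4x and Tmsb10 fell with Fscn1 and Dock8. Actb was not called without the first cisplatin (0.16), second PBS (0.16) or the third PBS library (0.17), and Swap70 not without the second PBS library (0.15). Tmsb10 lost its call without any single one of 4 libraries, all but the second and the third of PBS (-0.61 to -0.37).

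Spib, an ETS factor of plasmacytoid and B cells, was 1 of 3 genes that rose among 10 plasmacytoid markers (2 after thinning). It went from 40.9, 41.2 and 37.1 to 104, 86.8 and 92.1 CPM (log2 fold change 1.25 ± 0.091, edgeR adjusted p = 8.31e-10). Glipr2 rose from 345, 362 and 366 to 696, 686 and 698 CPM (0.95) and Adap1 from 307, 305 and 292 to 510, 511 and 496 (0.75). Lrp8, a lipoprotein and reelin receptor gene, rose by 1.22, Coro2a by 1.13 and the activating receptor gene Pira2 by 1.35 (one of a family of near copies, so its counts are uncertain). Fam120a and Ranbp9 rose in both nodes, Fam120a by 1.67 in the TDLN and 1.65 in the LN, and Ranbp9 by 2.17 and 3.43.

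Of those that fell, Malat1, a nuclear long noncoding RNA, was among the most abundant, at 4051, 4795 and 4890 CPM with cisplatin and 9194, 9499 and 9498 with PBS (log2 fold change -1.04 ± 0.0792, edgeR adjusted p = 1.86e-09). In the 24-library scaling TDLN PBS lay at 10870 to 11330 CPM and the other 3 migratory groups at 4354 to 6032, so PBS of the tumor node stood apart. Rgs1, a regulator of chemokine receptor signals, fell from 1153, 1149 and 1174 to 589.5, 664.2 and 680.2 (-0.85). The adhesion receptor gene Adgre4 fell by 1.08, against a rise of 0.42 in the LN. Phlda1 fell by 1.08 and Pcdh7 by 1.15. Pde2a was uneven, with 6.07, 0 and 11.7 CPM against 33.7, 26.6 and 32.4 (log2 fold change -2.37, edgeR adjusted p = 0.024). Without the second cisplatin library, which held no count, it was -1.80, and without the first -2.40, in both cases no longer called.

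B cell markers rose with cisplatin, 12 of 14 up and 0 down (edgeR, 13 up and 0 down at an unadjusted p under 0.05, 10 and 0 with DESeq2), 8 and 0 after thinning. Ms4a1 (CD20) went from 30.5, 29.7 and 29.7 to 50.3, 57.3 and 55.5 CPM (log2 fold change 0.86), and Cd79a from 48.4, 51.9 and 54.1 to 77.3, 80.3 and 79.3 (0.62). None of the markers was at 0. In the LN 13 of 14 rose. MHC class II genes, Ciita, Spib and Cxcr5, which B cells also express, rose beside them, and the part of B cell RNA in those rises was not tested. Immunoglobulin constant genes, chosen after their values were seen, varied widely. Ighg2c was at 57.7, 43.6 and 54.9 CPM with cisplatin against 1.06, 1.00 and 1.43 (log2 fold change 5.44, edgeR adjusted p = 1.2e-15), with Ighg2b (4.10), Ighg1 (2.81) and Ighg3 (1.78) in the same direction. Ighm (0.55), Ighd (0.37) and Igkc (0.71) rose less, and the light chain genes Iglc1 (0.10) and Iglc2 (0.08) were not called. In the LN Ighg2c rose by 2.57, Ighg3 by 5.09, Iglc1 by 2.84 and Iglc2 by 2.30, while Ighg2b was at 0.07 and not called. Ighe was at 1.01, 1.03 and 0 against 21.1, 22.4 and 21.7 CPM (-4.94), and it was also low with cisplatin in resident cells of the same node, at 0.299 to 1.03 against 47.5 to 55.8. In the LN it was low after either treatment. Its means there with cisplatin and PBS were 0.504 and 1.06 CPM in migratory and 0.462 and 0.235 in resident cells (24-library scaling). Only the PBS groups of the TDLN were high. In resident cells of the TDLN Ighg2b (-2.41) and Ighg3 (-2.92) fell too, unlike in migratory cells, and Ighg2c (-0.91) and Ighg1 (0.13) were not called.

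Calls among markers of other cells varied by list. Over all genes tested 14.1% rose and 13.2% fell, and 8.17% and 7.06% after thinning. Of 15 T cell genes 1 rose and 1 fell (1 and 0 after thinning), of 11 macrophage genes 5 and 2 (0 and 1), and of 8 monocyte genes 2 and 1 (1 and 1). Of 3 innate lymphoid genes tested 2 rose, Klrk1 among them, and after thinning 1. Of 5 stromal genes 0 were called (edgeR, 0 at an unadjusted p under 0.05, 0 with DESeq2). Erythroid and melanocyte genes were too low to test.

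The node comparison asked whether the effect differed from that in migratory cells of LN nodes, in which 770 genes rose and 604 fell. The difference (TDLN effect minus LN effect) was higher for 1055 of 12519 genes and lower for 897. With the GC offset the balance turned, with 1055 higher and 1118 lower. Of the genes that rose in the TDLN, 763 were called higher in that difference, and 287 also rose in the LN. Of those that fell, 526 were lower and 197 also fell in the LN. Over all 12519 genes the 2 effects correlated across genes at a Spearman rho of 0.08, with -0.057 under 4 CPM, 0.086 at 4 to 20, 0.178 at 20 to 100 and 0.194 above, a description from libraries that are not shared but with genes that are not independent.

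The lectin genes Cd209a and Mgl2, markers of cDC2, differed most in the negative direction. Cd209a fell from 14.53, 13.01 and 12.99 to 8.10, 5.49 and 7.24 CPM in the TDLN and rose by 2.30 in the LN, a difference of -3.25 (edgeR adjusted p = 3.83e-10). Mgl2 overlapped in the TDLN (-0.19) and rose by 2.65 in the LN. In the 24-library scaling LN cisplatin libraries stood at 89.8 to 99.2 CPM for Cd209a, with the other 3 migratory groups at 5.94 to 20.3. In the positive direction the leading genes were of low level, with Duxf3 at 15.5, 16.5 and 19.7 against 0.797, 2.00 and 2.01 CPM, Flg2 at 7.09, 8.58 and 7.59 against 0.620, 1.00 and 0.649, and Eppk1 at 10.5, 9.96 and 7.59 against 0.975, 1.47 and 1.17. These also rose in LN resident cells (1.28, 1.56 and 1.96), where PBS was the deep group, and Gm10800 did so too (1.79 and 1.46). After thinning to even counts the node differences were 3.99 for Duxf3, 2.68 for Flg2 and 3.55 for Eppk1. The TDLN value of Gm10800 was then 1.81. The part of anything else that goes with the deep libraries was not tested.

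**Figure D5:**
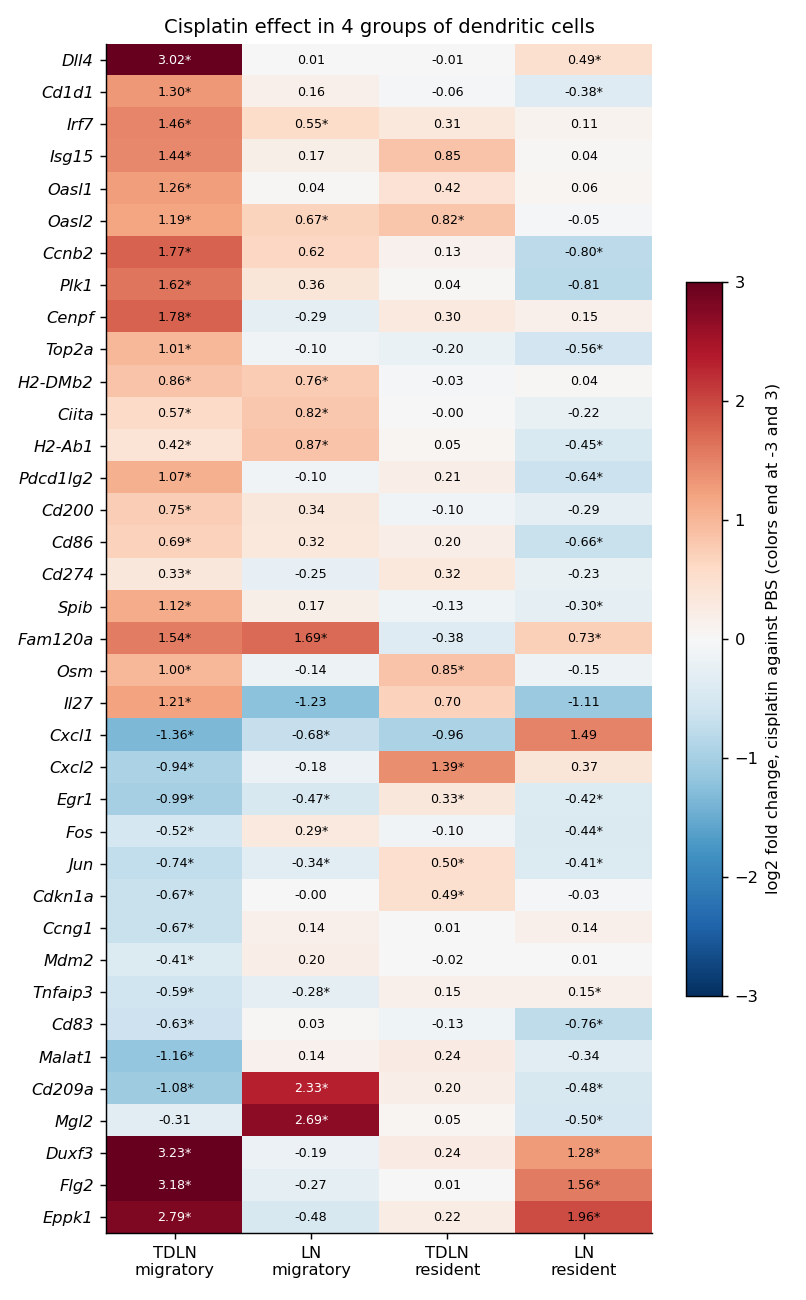
Log2 fold change of cisplatin against PBS for genes described in the text (rows) in 4 groups of dendritic cells (columns), from 1 fit of 24 libraries, with an asterisk for an adjusted p under 0.05. Values of the first column are from this fit and differ slightly from those in the text (Dll4 3.02). Dll4 and Cd1d1 are strongly raised in the first column and near 0 in LN migratory and TDLN resident cells, Fam120a is raised in both migratory columns, and Duxf3, Flg2 and Eppk1 are raised in the first and last, the comparisons with deep PBS libraries.

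The cell type comparison set migratory against resident cells of the same node. In resident cells 105 genes rose and 108 fell. The migratory effect was higher for 855 of 14548 genes (5.88%) and lower for 1005 (6.91%). That balance depends on scaling, with 46.0% of called genes higher here and 63.2% with DESeq2 size factors. Without the second cisplatin library of resident TDLN cells, which stands apart from its replicates, 1557 were higher and 1234 lower. Dll4 (3.03, edgeR adjusted p = 1.08e-11) and Cd1d1 (1.37) differed, as did Cdkn1a (-1.16) and Egr1 (-1.32), whereas Isg15 did not pass (0.59, edgeR adjusted p = 0.234). Genes of pancreatic enzymes led the list, Cela2a among them (5.15). Cela2a rose with cisplatin in migratory cells of both nodes (1.42 and 2.55) and fell in resident TDLN cells, from 52.6 to 61.0 CPM with PBS to 2.69 to 5.92 with cisplatin.

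A last contrast aligned depth, since TDLN migratory and LN resident cells both had deep PBS libraries. It took the mean effect of these 2 comparisons minus that of the 2 with even depth, and called 1193 of 14548 genes higher (8.2%) and 1859 lower (12.8%). With DESeq2 size factors the share of called genes that were higher was 52.5% in place of 39.1%. Of the genes that rose in TDLN migratory cells 523 were among those called higher, and of the 676 that rose at least 2-fold 433 were. Of the genes that fell 728 were among those lower. Of the lists, 23 of 24 immediate early genes were lower and 0 higher, 9 of 13 class II genes were lower and 0 higher, and 5 of 32 interferon genes were lower and 1 higher. The contrast mixes cell types and nodes, so depth and biology cannot be told apart in it.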

How the data were processed

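The dendritic cell libraries were polyA RNA-seq of sorted cells. Per the submitters' processing notes the authors used STAR, RSEM 1.3.0 and DESeq2 1.38.3 with build GRCm38; the annotation is not given in the sources used here. The deposited values are RSEM expected counts per gene, already whole numbers, and TPM, normalized by the authors. Fits used the expected counts, and TPM served only as a level beside them. Names and coordinates came from GENCODE vM21 (99.5% of 55487 IDs matched).

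Counts were fitted with edgeR 4.0.16 in R 4.3.3 (filterByExpr, TMM scaling, quasi-likelihood test, Benjamini-Hochberg adjustment over all genes tested). The 12 migratory libraries were fitted together, and all 24 dendritic cell libraries for contrasts with resident cells. CPM used TMM-scaled library sizes of the 12-library fit unless stated. The SE is the log2 fold change divided by the root of its F statistic. Alternatives were DESeq2 1.42.0, its size factors, no filter on low counts, thinning to 2002713 counts, a replicate block, the 6 libraries alone and leaving out each library. An offset for GC content and length and a mean of at least 10 CPM were chosen after seeing the data. The calling procedure was tested on simulated data. These held neither the GC trend nor the shift of the Gm10800 family, so they cannot show how such differences affect the calls.

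Genes named by size had an adjusted p under 0.05, a mean of at least 4 CPM and no overlap between groups. They were the 12 with the largest change and the 12 with the smallest p in each direction, the 12 most abundant with at least a 2-fold change, up to 6 members of each of 48 lists, 8 per direction of each difference, and Il33 and Il1rl1. Predicted genes, immunoglobulin segments and sex-linked genes were not named by size, and other genes named beyond this rule were chosen after their values were seen. Members and lists were chosen with earlier results of these data known. Libraries of macrophages were not used, and some genes that count in the lists are not reported here by name. Total counts ran from 2002713 to 15481059 per library, which limits precision below 4 CPM. Pairs of replicates in the compared groups differed by more than sampling noise, so none was merged.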

Additional observations from a re-analysis of the deposited data

Results flagged for a closer look

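The genes below stood out because the cisplatin effect in migratory cells of the tumor node differed from that in another group by a test of the difference itself (edgeR, adjusted p under 0.05 over all genes). They are the 8 with the widest difference in each direction, so their size was part of the choice.

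Against migratory cells of the LN, the difference (TDLN effect minus LN effect, log2) was 5.26 for Zfp433, 3.61 for Flg2, 3.61 for the cadherin gene Fat3, 3.60 for Frem2, 3.58 for Duxf3, 3.44 for Eppk1, 3.38 for Fat2 and 3.36 for the mucin gene Muc16. Zfp433 was at 0, 0 and 0.453 CPM in LN cisplatin, so the size of its difference is not well set (4.63 to 7.86 over the alternatives). In the other direction the lectin genes Cd209a (-3.25), Mgl2 (-2.84) and Cd209e (-2.72) led, followed by Znrf2 (-2.37), the macrophage elastase gene Mmp12 (-2.31), Reg1 (-2.31), Tcea1-ps1 (-2.28) and the ribonuclease gene Ear2 (-2.27). These calls held under every alternative run except that of Reg1, which after thinning was -1.45 (edgeR adjusted p = 0.313).

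Against resident cells of the same node, the difference was 5.87 for Ctrb1, 5.32 for Amy2a1, 5.15 for Cela2a, 5.12 for Clps, 5.0 for Cpb1, 4.75 for Pnliprp1 and 4.56 for Rnase1, all genes of pancreatic enzymes or secretions, and 5.50 for the exosome gene Exosc6. Exosc6 had 6, 2 and 0 counts with cisplatin and 0 in each PBS library, so its size is no bound, and it lost its call after thinning (edgeR adjusted p = 0.133) and without the first cisplatin library. The cisplatin effect, not the level, was lower in migratory cells for Rasgef1a (-2.77), Fblim1 (-2.69), Hgd (-2.40), Cxcl2 (-2.33), Emp2 (-2.07), Tnfaip8l3 (-2.07), Homer1 (-2.06) and Map2 (-1.92). Resident libraries near 0 enter several of these sizes, and over the alternatives they ran from 5.31 to 7.72 for Ctrb1, 4.75 to 8.03 for Amy2a1, -4.67 to -1.38 for Rasgef1a and -3.20 to -1.32 for Hgd. Of 18 alternatives, Hgd kept its call in 8, Tnfaip8l3 in 11, Rasgef1a in 14, Map2 in 16 and Homer1 in 17. Without the second cisplatin library of resident TDLN cells, Tnfaip8l3 was at -2.01 (edgeR adjusted p = 0.053).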

How the results depend on the processing

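Replicate numbers are shared by the groups, and whether they pair the samples is not stated. The main fit did not pair them. Deviations of the 3 same-numbered TDLN pairs correlated at 0.0395 to 0.179, not all above 0.1. All 6 libraries correlated best with their own number, which counts each of the 3 pairs from both sides. It is a hint from the data and not from the design. Over all migratory groups the 18 same-numbered pairs ran from -0.207 to 0.28. With a replicate block 1679 genes rose and 1566 fell, and 9 of 306 called genes that were named or described lost their call. Without a filter on low counts 4067 genes rose and 5355 fell in the TDLN, the node difference was higher for 1785 and lower for 3572, and the depth-aligned difference for 2705 and 5837. After thinning these counts were 926 and 801, 557 and 475, and 507 and 538, and the cell type difference was higher for 417 and lower for 277. With DESeq2 size factors 587 were lower in the cell type difference and 1170 in the depth-aligned one. With a mean of at least 10 CPM the cell type difference was lower for 480, and the depth-aligned one was higher for 447 and lower for 617. The share of called genes that were higher was 33.3% without a filter on low counts for the node difference (54.0% in the main analysis, 48.6% with the GC offset) and 43.2% for the TDLN effect (51.8% in the main analysis). For the cell type difference it was 57.3% with a mean of at least 10 CPM and 60.1% after thinning, against 46.0%. Leaving out 1 library gave 1406 to 1642 genes that rose and 1233 to 1522 that fell, 825 to 1197 and 760 to 1158 for the node difference, 580 to 1557 and 826 to 1234 for the cell type difference, and 1048 to 1612 and 1787 to 2412 for the depth-aligned one. The highest of the cell type counts came without the second cisplatin library of resident TDLN cells and the lowest, 580, without the second of migratory TDLN cells. Of those 306 genes 61 of 298 with a value lost their call after thinning, 32 with the GC offset, 23 with DESeq2, 3 with its size factors, 56 without a filter on low counts, 12 of 250 with a mean of at least 10 CPM, 1 of 305 with the 6 libraries alone, and 23 to 48 on leaving out 1 library. Another 21 turned without the filter and 1 with the GC offset.

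Genes whose sign turned did so without the filter on low counts, where the median of all genes moved by -0.28. The values under that setting were Actb -0.082, Atp5b -0.013, Bcl2l11 -0.010, Bcl3 -0.029, Ccr7 -0.26 (and -0.08 with the GC offset), Cd74 -0.15, Cd8a -0.26, Csf1r -0.0026, Fdps -0.0033, H2-D1 -0.15 (and -0.0008 with the GC offset), Il12b -0.27, Il7r -0.27, Irf4 -0.0052, Mcm6 -0.050, Ndufv1 -0.0035, Npc2 -0.25, Pkm -0.062, Psap -0.053, Psmb10 -0.038, Psmb8 -0.042, Relb -0.18, Spint2 -0.062, Stat6 -0.0095, Swap70 -0.11, Taldo1 -0.27, Tapbp -0.12, Tapbpl -0.014, Txndc5 -0.064, Uqcrc1 -0.081 and Xbp1 -0.23. The cause of the other differences was not tested. Depth limits genes below 4 CPM, where 1 CPM is about 3 counts in a cisplatin library.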
